A study of Homo sapiens with 8 samples.

Results

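The protein kinase C (PKC) family is described here in the established melanoma lines WM983B and SK-Mel5 by the RNA levels of 8 of its genes (PRKCA, PRKCB, PRKCD, PRKCE, PRKCH, PRKCI, PRKCQ and PRKCZ). These are 8 of the 23786 gene features measured, found by matching each feature's Entrez Gene number to the gene symbol. PRKCH was chosen by its measured change with shp300, a fall in both lines, so its values are given as a description with no test, and tests were made for the other 7. The cells had received pLKO1 lentivirus with either shp300, which targets EP300 (it encodes p300, a histone acetyltransferase and transcriptional coactivator), or a scrambled hairpin as control. They were selected in puromycin (1.5 µg/mL) from 48 h after they were transduced. There were 2 arrays in each of 4 groups: WM983B shp300, WM983B scrambled, SK-Mel5 shp300 and SK-Mel5 scrambled. Total RNA was hybridised to Human Gene 2.0 ST arrays from Affymetrix. Each line is a single established line, the labels name no more than the shp300 hairpin, and they do not say whether a group's arrays stand for separate cultures: p-values measure the spread between these arrays, which may be technical. The number of arrays limits the precision.

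Values are log2 expression values, and a change is the shp300 mean minus the scrambled mean on that scale. A feature was called, and is said to have risen or fallen, at an adjusted p under 0.05 in limma, with Benjamini-Hochberg adjustment over all 23786 features. The median feature lay at 4.26 in WM983B and at 2.99 in SK-Mel5 (median over the arrays of each line), while the arrays within a line differed in their medians by at most 0.0170 and 0.0499. The lines were apparently normalized separately, so levels were not compared between them, and only changes were.

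EP300 fell in SK-Mel5 (6.03 ± 0.0882 with shp300 and 7.05 ± 0.203 with scrambled shRNA, mean ± SD, n = 2 each; change -1.01, limma adjusted p = 0.00377). In WM983B it did not pass the test: 6.92 and 7.26 on the arrays labelled shp300, against 7.10 and 7.22 on the scrambled arrays, with a change of -0.07 and a 95% confidence interval of -0.43 to 0.29 (limma adjusted p = 0.832). Every WM983B direction below therefore rests on the label of those arrays. Of 8 melanocyte-lineage markers, 7 were measured and lay above the median feature on every array. Their summed log2 values ran from 63.1 to 64.8 on the WM983B arrays labelled shp300, against 73.1 to 73.2 on the scrambled arrays, and from 64.2 to 64.8 with shp300 in SK-Mel5, against 65.7 to 65.9 with scrambled shRNA. Its members did not move together. In WM983B the pigment genes TYRP1 and MLANA, MITF and PMEL fell (changes -4.05, -3.41, -1.71 and -0.42; limma adjusted p = 1.16e-05, 3.43e-05, 0.000173 and 0.0434), while SOX10, TYR and S100B had changes of -0.09, 0.22 and 0.21 and were not called (limma adjusted p = 0.678, 0.213 and 0.267). In SK-Mel5 MLANA and TYRP1 fell (changes -1.47 and -0.61; limma adjusted p = 0.00123 and 0.0104), TYR, the tyrosinase gene, rose by 0.64 (limma adjusted p = 0.00645), and the other 4 were not called. Of the 3 fibroblast markers, DCN rose in both lines (changes 0.71 and 1.33, limma adjusted p = 0.0201 and 0.00167), and the list's sum ran from 12.0 to 12.5 with shp300 and 11.4 to 11.5 with scrambled shRNA in WM983B, and from 11.8 to 12.8 with shp300 and 10.0 to 10.6 with scrambled shRNA in SK-Mel5. Of 4 measured leukocyte markers, LYZ rose in WM983B (change 1.74, limma adjusted p = 0.000334), where their sum ran from 12.2 to 12.6 on the arrays labelled shp300 and from 10.5 to 10.7 on the scrambled arrays. In SK-Mel5 that sum ran from 4.46 to 4.86 with shp300 and from 4.62 to 5.08 with scrambled shRNA. Both measured keratinocyte markers and all 3 endothelial markers lay below the median feature on every array. The part of any of these in the results was not tested. In bulk RNA, fewer cells of a type and less RNA per cell cannot be told apart.

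PKC enzymes are serine/threonine kinases that are held inactive by a pseudosubstrate until lipid messengers draw them to membranes. The conventional isoforms (PKCα from PRKCA, PKCβ from PRKCB) need calcium and diacylglycerol, and the calcium-independent class (PKCδ from PRKCD, PKCε from PRKCE, PKCη from PRKCH, PKCθ from PRKCQ) responds to diacylglycerol alone. The atypical isoforms (PKCι from PRKCI, PKCζ from PRKCZ) respond to neither and work in complexes that set cell polarity. In pigment cells, PKCβ is known to activate tyrosinase, and signals from Gq-coupled receptors through phospholipase C reach PKC in melanocytes and in uveal melanoma.

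The promoter windows of the isoform genes with the widest changes described below, PRKCH, PRKCE and PRKCI, are shown so that their base composition can be compared. They come from RefSeq (GRCh38.p14), run 5′ to 3′ from 250 bases before to 50 bases after an annotated transcription start, and have the GC box (GGGCGG, or CCGCCC where it lies on the opposite strand) in capitals.
PRKCH (chr14:61321329-61321628, plus strand): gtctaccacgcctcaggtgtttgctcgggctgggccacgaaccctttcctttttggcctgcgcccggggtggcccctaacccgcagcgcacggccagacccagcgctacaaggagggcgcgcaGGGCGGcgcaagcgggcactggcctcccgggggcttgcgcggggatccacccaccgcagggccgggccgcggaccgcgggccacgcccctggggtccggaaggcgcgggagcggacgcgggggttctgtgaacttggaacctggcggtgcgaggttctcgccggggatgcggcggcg
PRKCE (chr2:45651425-45651724, plus strand): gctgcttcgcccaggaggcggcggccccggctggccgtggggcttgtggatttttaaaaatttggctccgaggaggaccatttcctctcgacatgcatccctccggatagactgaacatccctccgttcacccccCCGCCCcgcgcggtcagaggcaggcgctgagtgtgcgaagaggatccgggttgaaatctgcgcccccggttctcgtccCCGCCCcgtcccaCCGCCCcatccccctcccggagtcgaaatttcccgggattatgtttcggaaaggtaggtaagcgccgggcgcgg
PRKCI (chr3:170222174-170222473, plus strand): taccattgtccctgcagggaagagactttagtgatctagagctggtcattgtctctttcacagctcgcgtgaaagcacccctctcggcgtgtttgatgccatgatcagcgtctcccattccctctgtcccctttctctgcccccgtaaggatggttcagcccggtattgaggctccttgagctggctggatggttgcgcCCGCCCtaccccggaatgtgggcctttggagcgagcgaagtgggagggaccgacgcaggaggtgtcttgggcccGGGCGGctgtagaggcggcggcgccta

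All 8 genes matched the RefSeq table, with 13 windows of 300 bases between them. Over these windows the share of G or C ran from 51.3% (PRKCQ) to 81.3% (PRKCA). The PRKCA window, with 52 CpG dinucleotides, and the PRKCB window, with 77.7% and 38, were richer in G and C than those of the 3 genes shown. So were PRKCD windows with 75% and 76.7% and a PRKCZ window with 81%, while the other windows of PRKCD and PRKCZ were less rich than that of PRKCH. The PRKCH window was 74.3% G or C and held 37 CpG dinucleotides. That of PRKCE was 64.7% G or C with 30 CpG dinucleotides, and that of PRKCI 60.7% with 19. The medians over all 35116 windows in the table were 58.7% and 14. A GC box was present once in PRKCH, 3 times in PRKCE and 2 times in PRKCI, and 45% of all windows held at least 1. The AP-1 element TGANTCA, the E-box CACGTG and the M-box TCATGTG, searched on both strands, matched none of the 13 windows, against 7.71%, 7.26% and 2.92% of all windows. The cyclic AMP response element TGACGTCA matched a PRKCZ window and 1.85% of all windows. These are matches of letters within the windows.

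PRKCH (Entrez Gene 5583) encodes PKCη, which is known best from differentiating keratinocytes. In WM983B it read 3.77 and 3.42 on the arrays labelled shp300, against 5.38 and 5.83 on the scrambled arrays. In SK-Mel5 it read 2.77 and 2.91 with shp300, against 6.18 and 5.99 with scrambled shRNA. The groups did not overlap in either line, which its choice already implies, and the scrambled arrays lay above the median feature of their array while all 4 shp300 arrays lay below it (percentiles 39.3 to 49.0 among features). The group means were 3.59 ± 0.249 with shp300 and 5.60 ± 0.317 with scrambled shRNA in WM983B, and 2.84 ± 0.0998 with shp300 and 6.08 ± 0.139 with scrambled shRNA in SK-Mel5 (SD, n = 2 each). The change was thus -2.01 (4.03-fold) in WM983B, -3.24 (9.46-fold) in SK-Mel5 and -2.63 over both lines, and that in WM983B was 1.23 log2 units smaller in size. Because the shp300 values lay in the lower part of the arrays' range, the size of these folds is uncertain.

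The gene features with the most similar pattern to PRKCH were taken by the Euclidean distance between 8 array values after each line's mean was subtracted. SLC19A2, a thiamine transporter gene, was nearest, at a distance of 0.486 log2 units, with changes of -2.09 in WM983B and -3.36 in SK-Mel5. DEPDC1B, which encodes a DEP-domain protein, followed at 0.721 (-2.24 and -2.82), G3BP2, a stress granule gene, at 0.783 (-2.29 and -2.75), MAP2K6, a kinase of the p38 pathway, at 0.830 (-1.93 and -3.06) and CENPI, a centromere gene, at 0.894 (-1.86 and -2.54). These 5 were chosen for likeness over 8 arrays, and their changes are a description with no test.

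**Figure D1:**
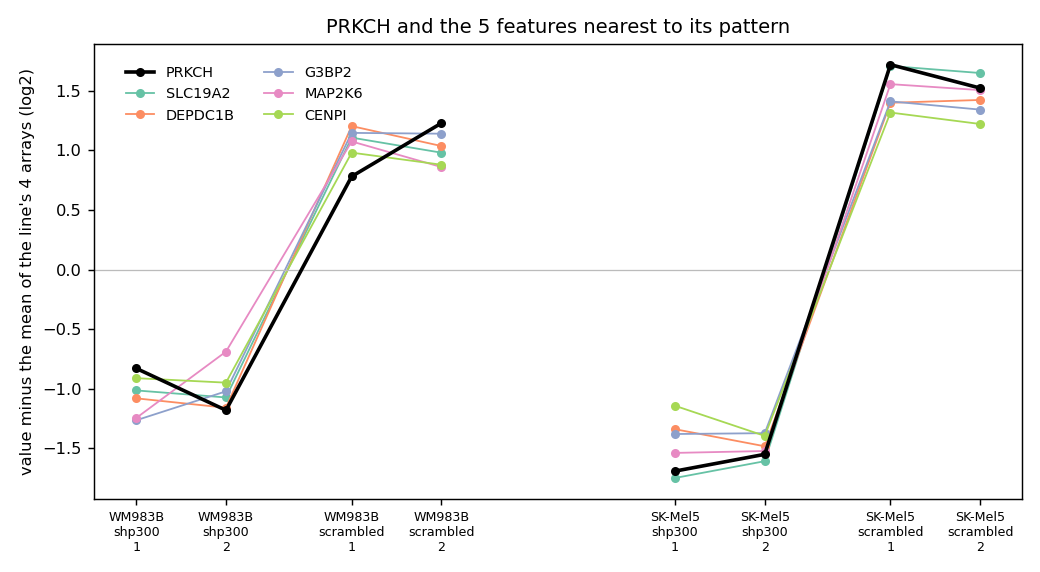
Line-centred log2 values (array value minus the mean of its line) of PRKCH and of the 5 features with the nearest pattern, on the 8 arrays. Points are arrays, with shp300 left of scrambled in each line, and every feature was lower on the shp300 arrays of both lines, more so in SK-Mel5.

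Neighbouring genes in the RefSeq annotation were looked at for the level of the surrounding locus. TMEM30B, a lipid flippase subunit gene that overlaps the annotated span of PRKCH, had changes of 0.14 in WM983B and 0.19 in SK-Mel5. Neither passed the test (limma adjusted p = 0.531 and 0.428). SLC38A6, an amino acid transporter gene that starts before PRKCH and does not overlap it, had a change of 0.15 in WM983B (limma adjusted p = 0.528). It fell in SK-Mel5, by 0.71 on the log2 scale (limma adjusted p = 0.0118), a call lost without SK-Mel5 scrambled replicate 2 (0.0788) or shp300 replicate 2 (just above 0.05). LOC101927756 and PRKCH-AS1 were not analysed here.

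**Figure D2:**
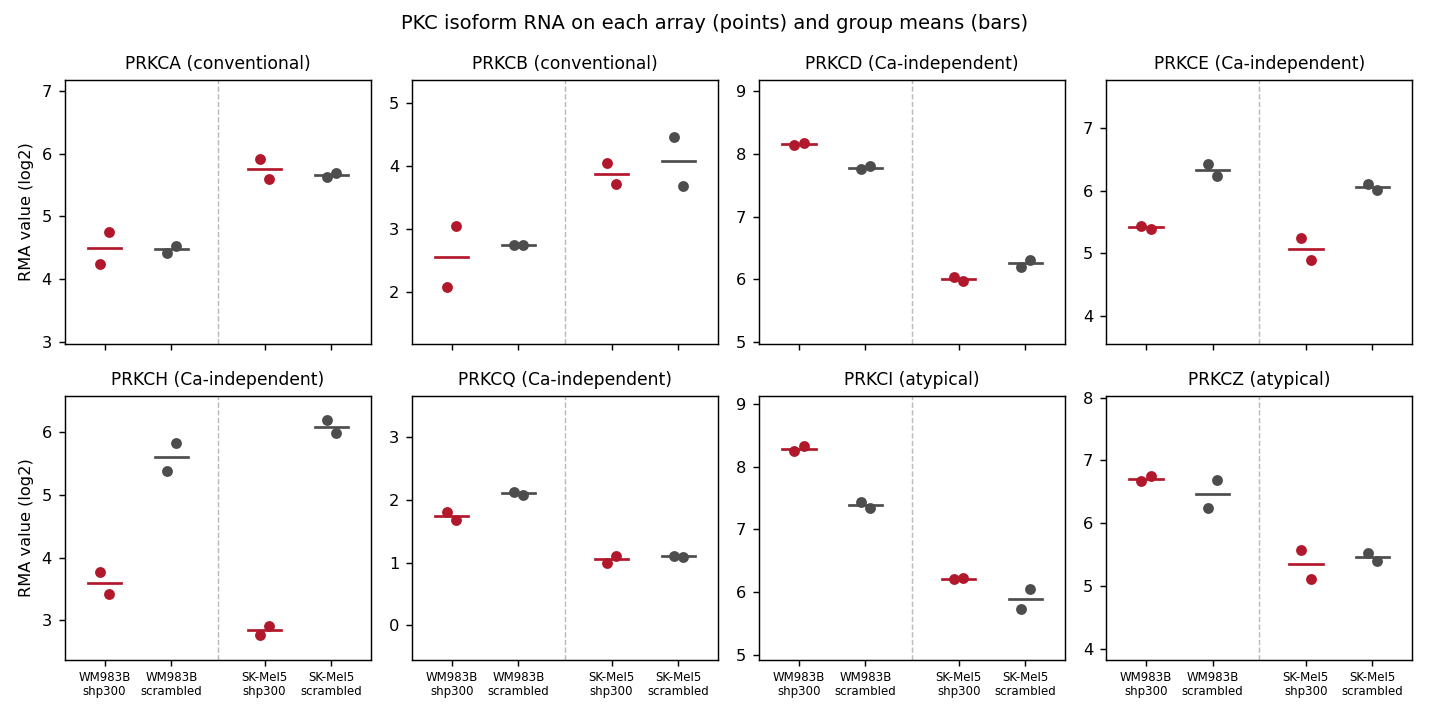
Deposited log2 values of the 8 PKC genes on each array, with shp300 left of scrambled in each line. Points are arrays and short bars are group means. PRKCH and PRKCE lie lower on the shp300 arrays of both lines, PRKCI lies higher, and the arrays of PRKCA, PRKCB and PRKCZ overlap between shp300 and scrambled.

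PRKCE (Entrez Gene 5581) encodes PKCε, which is known to promote growth and survival in several tumour types. It fell in both lines by about the same amount. In WM983B it read 5.44 and 5.40 on the arrays labelled shp300, against 6.43 and 6.23 on the scrambled arrays. In SK-Mel5 it read 5.25 and 4.90 with shp300, against 6.11 and 6.02 with scrambled shRNA. The groups did not overlap in either line. With 2 arrays a group, uncalled genes such as EDNRB and PLCB1 in WM983B also showed this. It is therefore not read as a result for PRKCE. It fell by 0.91 in WM983B (1.88-fold; SE 0.144; limma adjusted p = 0.00302) and by 0.99 in SK-Mel5 (1.99-fold; SE 0.144; limma adjusted p = 0.00294), and over both lines the change was -0.95 (SE 0.107; limma adjusted p = 0.000504). The difference between the changes of the lines was 0.08, with a 95% interval of -0.39 to 0.55 (limma adjusted p = 0.870). PRKCE was called in both lines with each array left out in turn, with changes of -1.01 to -0.81 in WM983B and -1.17 to -0.82 in SK-Mel5.

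PRKCD (Entrez Gene 5580) encodes PKCδ, which often takes part in apoptosis and growth arrest. It read 8.14 and 8.17 on the WM983B arrays labelled shp300, against 7.75 and 7.80 on the scrambled arrays. In SK-Mel5 it read 6.05 and 5.98 with shp300, against 6.20 and 6.32 with scrambled shRNA. The groups did not overlap in either line, which some uncalled genes also showed and which is not read as a result. The groups lay in opposite order between the lines. PRKCD rose by 0.38 (1.30-fold; 95% interval 0.14 to 0.62) in WM983B (limma adjusted p = 0.0353), and its change of -0.24 in SK-Mel5 did not pass the test (limma adjusted p = 0.175). The difference between these changes was 0.62 (95% interval 0.28 to 0.96; limma adjusted p = 0.0387). Neither call was stable. That in WM983B was lost without WM983B scrambled replicate 1 (limma adjusted p = 0.154) or 2 (0.113), without shp300 replicate 1 (0.0978) or 2 (0.120) of that line, and without either SK-Mel5 scrambled array (0.0511 each). The difference was lost without any of the 8 arrays (limma adjusted p = 0.0651 to 0.121).

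PRKCQ (Entrez Gene 5588) encodes PKCθ, which is known from T cell receptor signalling. It read 1.81 and 1.68 on the WM983B arrays labelled shp300, against 2.12 and 2.08 on the scrambled arrays. The SK-Mel5 values were 0.99 and 1.11 with shp300, against 1.11 and 1.09 with scrambled shRNA. All 8 values lay near the bottom of their arrays (percentiles 4.58 to 17.4 among features). The WM983B change of -0.36 missed the threshold (95% interval -0.61 to -0.10; limma adjusted p = 0.0507), and passed it after median centring (0.0471), cyclic loess (0.0299) or array weighting (0.0429). The SK-Mel5 change was -0.05 (limma adjusted p = 0.846), with overlapping arrays.

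The conventional isoforms showed no change that passed the test in either line. PRKCA (Entrez Gene 5578) encodes PKCα, the most widely studied isoform. It read 4.24 and 4.75 on the WM983B arrays labelled shp300, against 4.42 and 4.53 on the scrambled arrays, and 5.91 and 5.59 with shp300, against 5.62 and 5.69 with scrambled shRNA, in SK-Mel5. The arrays overlapped in both lines. Its changes were 0.02 (95% interval -0.41 to 0.44; limma adjusted p = 0.967) and 0.09 (95% interval -0.33 to 0.52; limma adjusted p = 0.825). PRKCB (Entrez Gene 5579) encodes PKCβ. It read 2.07 and 3.04 on the WM983B arrays labelled shp300, against 2.75 and 2.74 on the scrambled arrays. The SK-Mel5 values were 4.05 and 3.71 with shp300, against 4.46 and 3.67 with scrambled shRNA. The arrays overlapped in both lines, and all 4 WM983B arrays lay below the median feature. Its changes were -0.18 (95% interval -0.97 to 0.60; limma adjusted p = 0.781) and -0.19 (95% interval -0.98 to 0.59; limma adjusted p = 0.802). In WM983B a change as large as that of PRKCE in that line (-0.91) lies within the interval. In SK-Mel5 the change of PRKCE (-0.99) lies just outside it.

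Of the atypical isoforms, PRKCI (Entrez Gene 5584) encodes PKCι, which binds PAR6 and is known as an oncogene in several carcinomas. It read 8.24 and 8.32 on the WM983B arrays labelled shp300, against 7.43 and 7.34 on the scrambled arrays. The SK-Mel5 values were 6.20 and 6.23 with shp300, against 5.74 and 6.05 with scrambled shRNA. The shp300 arrays were higher than the scrambled arrays in both lines, with no overlap. Some uncalled genes also showed this, so the lack of overlap is not read as a result. PRKCI rose by 0.90 (1.87-fold; SE 0.130) in WM983B (limma adjusted p = 0.00203), and was called there with each array left out in turn. Its change of 0.32 in SK-Mel5 did not pass the test (95% interval 0.02 to 0.62; limma adjusted p = 0.148). Over both lines it rose by 0.61 (SE 0.137; limma adjusted p = 0.0152), a call that was lost without WM983B scrambled replicate 1 (0.0533), scrambled replicate 2 (0.0517) or shp300 replicate 1 (0.0509). The difference of 0.58 between the lines' changes was not called (95% interval 0.15 to 1.00; limma adjusted p = 0.0991), and passed the threshold when dim features were left out (0.0384) or with a trended and robust variance model (0.0314).

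PRKCZ (Entrez Gene 5590) encodes PKCζ. It read 6.67 and 6.75 on the WM983B arrays labelled shp300, against 6.24 and 6.69 on the scrambled arrays, and 5.58 and 5.12 with shp300, against 5.52 and 5.40 with scrambled shRNA, in SK-Mel5. The arrays overlapped in both lines, and its changes were 0.24 (95% interval -0.20 to 0.69; limma adjusted p = 0.458) and -0.11 (95% interval -0.56 to 0.33; limma adjusted p = 0.793).

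**Figure D3:**
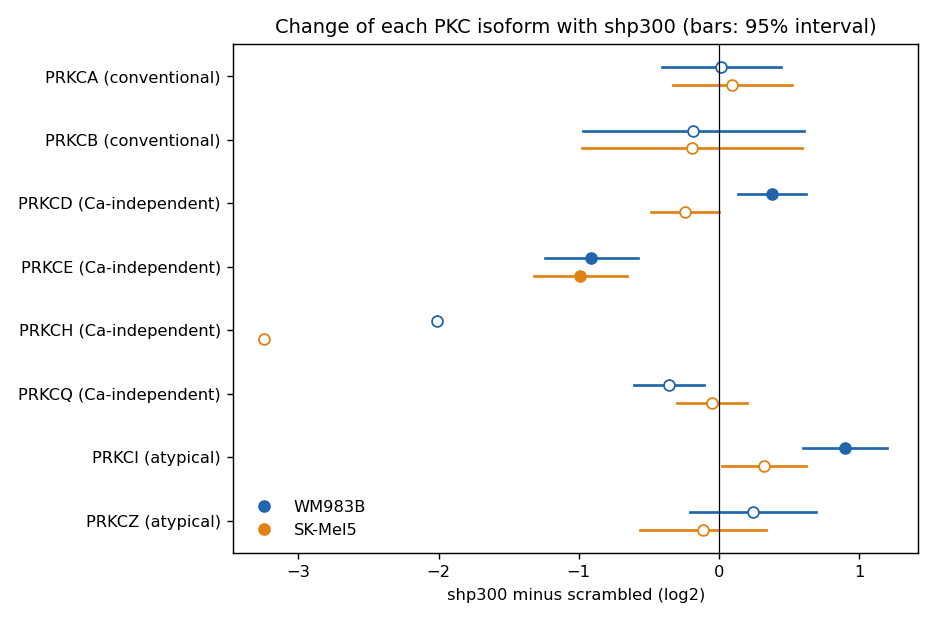
Changes of the 8 PKC genes (shp300 minus scrambled, log2) in WM983B and SK-Mel5, with 95% confidence intervals for the 7 tested genes and filled symbols where the adjusted p was under 0.05. PRKCH was not tested and is drawn open with no interval. PRKCE is low in both lines and PRKCI is highest in WM983B.

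Counted over the 7 tested isoforms, 3 were called in WM983B (PRKCD and PRKCI higher, PRKCE lower), where 22.5% of all 23786 features were called, 10.9% higher and 11.6% lower. In SK-Mel5 1 was called (PRKCE, lower), where 16.4% of all features were, 7.57% higher and 8.8% lower. Over both lines 2 were called (PRKCI higher, PRKCE lower), against 16.8% of all features (7.63% higher, 9.15% lower), and in the difference between the lines 1 was (PRKCD), against 9.46% of all features. The median change of the 7 was 0.02 in WM983B and -0.11 in SK-Mel5, and that of all features was 0.02 and 0.01. These counts were not tested against the background.

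Genes around the kinases in the pathway were counted from 9 lists, of which 75 of 84 genes were measured. In WM983B 22 were called (12 higher, 10 lower; 29.3%, where 22.5% of all features were called), and in SK-Mel5 23 (13 higher, 10 lower; 30.7%, where 16.4% of all features were called). Their median change was 0.03 in WM983B and 0.02 in SK-Mel5. With each array left out in turn, only part of these calls held throughout in each line, and the same was true of the calls over all features. Whether the lists differ from all features in this was not tested. The WM983B calls that held were PRKD3, DGKA, UNC13A, RICTOR, HSP90AA1, PHLPP2, SDC4, PARD6B, WWC1, MARCKS and PEBP1, and those in SK-Mel5 were PRKD3, PLCB1, PLCG2, RASGRP1, UNC13A, UNC13B, PARD6G, WWC1, MARCKS and GNA11.

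**Figure D4:**
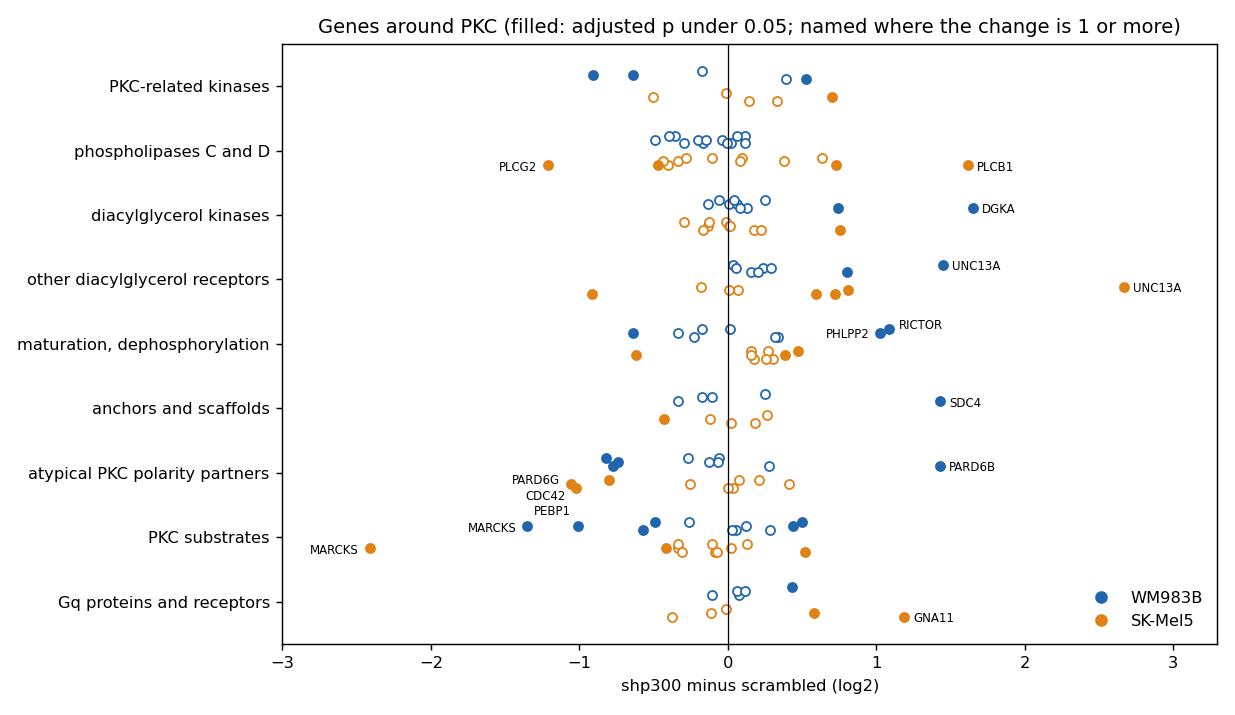
Changes (shp300 minus scrambled, log2) of the measured genes of each pathway list in both lines, with a point for each gene and line, filled where the adjusted p was under 0.05. Genes that were called with a change of 1 or more are named, and MARCKS and UNC13A lie at the ends of the range.

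Upstream of the kinases, the Gq list holds the G proteins that switch on phospholipase C and the receptors that use them in melanocytes. Of its 5 measured genes 1 rose in WM983B and 2 in SK-Mel5 (median changes 0.08 and -0.01). GNA11, a Gq-class α subunit that is recurrently mutated in uveal melanoma, read 6.81 and 6.97 with shp300 and 5.85 and 5.55 with scrambled shRNA in SK-Mel5. It rose there by 1.19 (limma adjusted p = 0.00112), its change in WM983B was -0.10 (limma adjusted p = 0.685), and the difference between the lines was -1.29 (limma adjusted p = 0.00774). Of 13 measured phospholipases C and D, which make diacylglycerol directly or by way of phosphatidic acid, none was called by limma in WM983B (3 had an unadjusted p under 0.05), and 2 rose and 2 fell in SK-Mel5 (median changes -0.15 and -0.11). PLCB1, the Gq-driven β1 enzyme, read 5.54 and 5.01 with shp300 and 3.70 and 3.61 with scrambled shRNA in SK-Mel5. PLCG2, the γ2 enzyme known from blood cells, read 3.81 and 3.77 with shp300 and 4.97 and 5.02 with scrambled shRNA in that line. PLCB1 rose there by 1.62 (3.07-fold; limma adjusted p = 0.000714) and PLCG2 fell by 1.21 (2.31-fold; limma adjusted p = 0.000312). For PLCB1 the change in WM983B was -0.17 (limma adjusted p = 0.575) and the difference between the lines -1.78 (limma adjusted p = 0.00511).

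Diacylglycerol kinases end the signal by turning diacylglycerol into phosphatidic acid. Of 10 measured, 2 rose in WM983B and 1 in SK-Mel5, and none was called lower in either line by limma (2 and 1 of the 10 had an unadjusted p under 0.05, all of them called higher; median changes 0.07 and -0.0011). DGKA, the α enzyme, was called in both lines. It read 5.90 and 5.78 on the WM983B arrays labelled shp300, against 4.16 and 4.21 on the scrambled arrays, and 4.26 and 3.87 with shp300, against 3.49 and 3.13 with scrambled shRNA, in SK-Mel5. It rose by 1.65 (3.15-fold; limma adjusted p = 0.000391) and by 0.76 (limma adjusted p = 0.0188). The call in SK-Mel5 was lost without scrambled replicate 2 (0.114) or shp300 replicate 1 (0.0870) of that line and in a fit of its arrays alone (0.105).

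Other proteins bind diacylglycerol through the same kind of C1 domain. Of 8 measured, 2 rose in WM983B, and 4 rose and 1 fell in SK-Mel5 (median changes 0.22 and 0.33). UNC13A, a vesicle-priming factor of nerve cells, read 5.05 and 5.37 on the WM983B arrays labelled shp300, against 3.87 and 3.65 on the scrambled arrays. In SK-Mel5 it read 5.24 and 5.28 with shp300, against 2.76 and 2.42 with scrambled shRNA. It rose by 1.45 (2.73-fold; limma adjusted p = 0.000647) in WM983B and by 2.67 (6.36-fold; limma adjusted p = 8.27e-05) in SK-Mel5, and every scrambled array lay below the median feature. In SK-Mel5 UNC13B, its paralog, rose by 0.72 (limma adjusted p = 0.00321) and RASGRP1, an exchange factor for Ras, by 0.81 (limma adjusted p = 0.00237), and their changes in WM983B, 0.20 and 0.24, were not called (limma adjusted p = 0.241 and 0.192). RASGRP3, a related exchange factor named after its value was seen, was the gene that fell (change -0.91; limma adjusted p = 0.0193), and it was not among the calls that held without each array.

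New PKC has to be phosphorylated by PDK1 and mTORC2 with help from HSP90, and PHLPP phosphatases undo this. Of 9 measured genes for these steps, 2 rose and 1 fell in WM983B and likewise 2 and 1 in SK-Mel5 (median changes 0.02 and 0.26). RICTOR, the defining subunit of mTORC2, read 8.66 and 8.86 on the WM983B arrays labelled shp300, against 7.74 and 7.60 on the scrambled arrays, and rose by 1.09 (2.13-fold; limma adjusted p = 0.000522). Its rise of 0.47 in SK-Mel5 (limma adjusted p = 0.0289) was lost without scrambled replicate 1 (0.131), scrambled replicate 2 (0.104), shp300 replicate 1 (0.0812) or shp300 replicate 2 (0.103) of that line. HSP90AA1, the inducible HSP90 gene, fell by 0.64 in WM983B (limma adjusted p = 0.00552) and by 0.61 in SK-Mel5 (limma adjusted p = 0.00888), a call in SK-Mel5 that was lost without SK-Mel5 scrambled replicate 2 (0.0630). PHLPP2, the phosphatase gene, rose by 1.03 in WM983B (limma adjusted p = 0.00502), and its change in SK-Mel5 was 0.16 (limma adjusted p = 0.661).

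Scaffolds hold active PKC near its targets. Of 5 measured, 1 rose in WM983B and 1 fell in SK-Mel5 (median changes -0.11 and 0.02). SDC4, the gene of syndecan-4, which binds PKCα at focal adhesions, read 10.12 and 10.14 on the WM983B arrays labelled shp300, against 8.75 and 8.63 on the scrambled arrays. It rose by 1.43 (2.70-fold; limma adjusted p = 0.000148), its change in SK-Mel5 was 0.02 (95% interval -0.25 to 0.29; limma adjusted p = 0.953), and the difference between the lines was 1.41 (limma adjusted p = 0.00317). The polarity proteins that bind the atypical isoforms had 9 measured genes, of which 1 rose and 3 fell in WM983B and 3 fell in SK-Mel5 (median changes -0.12 and 0.00025). WWC1, the gene of the scaffold KIBRA, which PKCζ phosphorylates, fell by 0.82 in WM983B (limma adjusted p = 0.00197) and by 0.80 in SK-Mel5 (limma adjusted p = 0.00313). It read 3.60 and 3.59 on the WM983B arrays labelled shp300, against 4.50 and 4.32 on the scrambled arrays, and 4.46 and 4.59 with shp300, against 5.39 and 5.27 with scrambled shRNA, in SK-Mel5.

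The PAR6 proteins tie PKCι and PKCζ to CDC42. PARD6B read 7.89 and 7.76 on the WM983B arrays labelled shp300, against 6.42 and 6.38 on the scrambled arrays, and rose by 1.43 (2.69-fold; limma adjusted p = 0.000700). In SK-Mel5 its arrays overlapped (4.94 and 4.97 with shp300, 5.20 and 4.71 with scrambled shRNA), and the difference between the lines was 1.43 (limma adjusted p = 0.00976). PARD6G fell by 1.06 in SK-Mel5 (limma adjusted p = 0.00452) and by 0.74 in WM983B (limma adjusted p = 0.0159). The WM983B call of PARD6G was lost without scrambled replicate 2 (0.106), shp300 replicate 1 (0.0800) or shp300 replicate 2 (0.0646) of that line. CDC42, the small GTPase, fell by 0.77 in WM983B (limma adjusted p = 0.0248) and by 1.02 in SK-Mel5 (limma adjusted p = 0.0103). These calls were lost without WM983B scrambled replicate 1 (0.155) or shp300 replicate 1 (0.142), and without SK-Mel5 scrambled replicate 1 (0.0726).

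Of 11 measured genes of PKC substrates, 2 rose and 4 fell in WM983B, and 1 rose and 2 fell in SK-Mel5 (median changes 0.03 and -0.11). MARCKS, the gene of the classical membrane-bound substrate that links PKC to the actin cytoskeleton, had the largest change of the list in both lines. It read 6.38 and 6.44 on the WM983B arrays labelled shp300, against 7.74 and 7.77 on the scrambled arrays. The SK-Mel5 values were 4.70 and 4.63 with shp300, against 7.05 and 7.11 with scrambled shRNA. MARCKS fell by 1.35 (2.55-fold; limma adjusted p = 0.000117) in WM983B and by 2.41 (5.32-fold; limma adjusted p = 4.45e-05) in SK-Mel5, and the difference of 1.06 between the lines was called (limma adjusted p = 0.00538). PEBP1, the gene of the Raf kinase inhibitor protein, which PKC releases from Raf by phosphorylation, read 9.44 and 9.35 on the WM983B arrays labelled shp300, against 10.40 and 10.41 on the scrambled arrays, and fell by 1.01 (2.01-fold; limma adjusted p = 0.000526). Its fall of 0.42 in SK-Mel5 (limma adjusted p = 0.0362) was lost without any of the 8 arrays (up to 0.168).

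Of the kinases most closely related to PKC, 5 of 6 were measured, of which 1 rose and 2 fell in WM983B and 1 rose in SK-Mel5 (median changes -0.17 and 0.14). PRKD3, a protein kinase D gene whose product is switched on by PKC and diacylglycerol, moved in opposite directions in the lines. It read 8.86 and 8.73 on the WM983B arrays labelled shp300, against 9.43 and 9.43 on the scrambled arrays, and 8.96 and 9.21 with shp300, against 8.40 and 8.36 with scrambled shRNA, in SK-Mel5. It fell by 0.64 in WM983B (limma adjusted p = 0.00739), rose by 0.70 in SK-Mel5 (limma adjusted p = 0.00672), and the difference was -1.34 (limma adjusted p = 0.00437). PKN3, a kinase gene of this list, fell by 0.91 in WM983B (limma adjusted p = 0.00985), a call lost without WM983B scrambled replicate 1 (0.0634), scrambled replicate 2 (0.0543) or shp300 replicate 1 (0.0651).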

How the data were processed

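RNA of WM983B and SK-Mel5 cells was measured on 8 arrays, 2 in each group. The authors deposited 1 log2 value for each gene feature and array, made by RMA with affy 1.36.1 in R 2.15.1, per the submitters' processing notes. The genome build and the mapping of probes to genes are not given in the sources used here. Of 23786 features, 22458 matched 1 symbol, 0 several and 1328 none. Every deposited column was used, and no feature was filtered.

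limma 3.58.1 in R 4.3.3 (lmFit and eBayes) fitted all 8 arrays in a 4-group model for the change in each line and the difference of the changes (WM983B minus SK-Mel5), and in an additive model of line and shRNA for both lines. Tests were two-sided. Benjamini-Hochberg adjustment ran over every feature, separately in 4 comparisons. Replicate numbers were not shown to pair the arrays: the correlation of deviations of arrays with the same number was 0.00303 in WM983B and 0.0277 in SK-Mel5, and the fit with the number as a block is an alternative. The methods were tested on simulated data.

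The isoforms, gene lists and tests were chosen with earlier results of these data known. All 8 isoforms were named, with up to 4 genes per list by smallest p, the 5 genes nearest to PRKCH, its annotated neighbours, EP300 and MITF. RASGRP3 was added after its value was seen.

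The alternatives were the replicate block, dim features (mean below the median feature) left out, median centring, quantile normalization, cyclic loess, array weights, trended and robust variances, each line's arrays fitted alone, each array left out in turn, and other thresholds (adjusted p under 0.1, or 1.5-fold or more). A lone array then left in a group is assumed to vary like the other groups.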

Additional observations from a re-analysis of the deposited data

Results flagged for a closer look

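Of 65 tested genes named or used as markers, 15 (23.1%) changed differently with shp300 between the lines, where 9.46% of all features did. The test was limma's test of the difference itself (WM983B change minus SK-Mel5 change, log2, adjusted over all features). The list genes among the 65 were named for their small p in these data, so the 2 shares cannot be compared. Of all 75 measured list genes, 9 (12%) were called in the difference. Among the isoforms PRKCD was called, at 0.62 (adjusted p = 0.0387), a call that was lost without any of the 8 arrays. Among the genes around them, the difference was -1.34 for PRKD3 (adjusted p = 0.00437), -1.78 for PLCB1 (0.00511), -1.29 for GNA11 (0.00774), 1.41 for SDC4 (0.00317), 1.43 for PARD6B (0.00976) and 1.06 for MARCKS (0.00538), all of which held with each array left out in turn. The difference of 0.91 for PLCG2 (adjusted p = 0.0105) missed the threshold without WM983B scrambled replicate 2 (0.0510). For UNC13A it was -1.22 (adjusted p = 0.0173), and this missed the threshold when either replicate 1 array of WM983B (0.0706 for scrambled, 0.0538 for shp300) or either replicate 2 array of SK-Mel5 (0.0570 for scrambled, 0.0509 for shp300) was left out.

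For the targeted gene EP300 the difference was 0.95 (adjusted p = 0.0357). It fell in SK-Mel5 and did not pass the test in WM983B. The difference missed the threshold when either scrambled array of WM983B (0.119 for replicate 1, 0.0953 for replicate 2), shp300 replicate 2 of WM983B (0.0963), scrambled replicate 1 of SK-Mel5 (0.112) or either shp300 array of SK-Mel5 (0.0839 and 0.0672) was left out. Among the markers, the difference was -3.45 for TYRP1 (adjusted p = 0.000264), -1.94 for MLANA (0.00424) and 2.01 for LYZ (0.00348), and these held without each array. MITF, the melanocyte transcription factor, differed by -1.46 (adjusted p = 0.00570). It fell by 1.71 in WM983B (adjusted p = 0.000173), and its change in SK-Mel5 was -0.25 (adjusted p = 0.310). SLC38A6, which starts before PRKCH, differed by 0.86 (adjusted p = 0.0352), a call lost without any array other than WM983B shp300 replicate 2.

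EP300 changed by -0.07 in WM983B (95% interval -0.43 to 0.29) and by -1.01 in SK-Mel5, and the part of this gap in the other differences was not tested.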

How the results depend on the processing

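No called value changed direction under any alternative. Of 552 isoform values recomputed, 517 stayed the same. For tested isoforms this means the same side of the threshold, and for the untested PRKCH a shift smaller than the spread between arrays. Another 22 lost a call and 7 gained one, while 6, all of PRKCH without 1 array, moved beyond that spread. With the replicate number as a block, 0 isoforms were called by limma in the difference between the lines (2 had an unadjusted p under 0.05), where PRKCD had been, and the PRKCD call in WM983B was lost (limma adjusted p = 0.0533). The block also ended the calls of the difference for EP300 (0.0534) and SLC38A6 (0.0530) and of the SK-Mel5 change of PEBP1 (0.0549), PLCD4 (0.0586) and CHN1 (0.0528), and brought the difference for DGKA past the threshold (0.0440). The block left 5025 features called in WM983B and 3600 in SK-Mel5. The isoforms called in the difference also numbered 0 with median centring (2 had an unadjusted p under 0.05), and they numbered 2 with dim features left out, with trended and robust variances, or at an adjusted p under 0.1. Features called numbered 3404 in the difference at an adjusted p under 0.1, 2291 over both lines with a minimum of 1.5-fold, and 2050 in SK-Mel5 with its arrays fitted alone. Without 1 array at a time, features called ranged over 3146 to 5398 in WM983B, 2143 to 3648 in SK-Mel5, 2845 to 3694 over both lines and 885 to 1784 in the difference. Isoforms called then ranged over 2 to 3 in WM983B, 1 to 1 in SK-Mel5, 1 to 2 over both lines and 0 to 0 in the difference (2 with an unadjusted p under 0.05 each time). The causes were not tested, except that a stricter or looser threshold or fewer arrays changes a count by construction. With 2 arrays a group, and PRKCH with shp300 and PRKCQ in the lower part of the range, precision is limited.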
